A study of Oryza nivara and Oryza rufipogon with 42 samples.

Results

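Plasma membrane intrinsic proteins, or PIPs, are the aquaporins of the plant plasma membrane. The set described here holds 10 rice loci, picked by locus number and not by any measured value: PIP1-1 (LOC_Os02g44630), PIP1-2 (LOC_Os04g47220) and PIP1-3 (LOC_Os02g57720) of the PIP1 subfamily, and PIP2-1 (LOC_Os07g26690), PIP2-2 (LOC_Os02g41860), PIP2-3 (LOC_Os04g44060), PIP2-4 (LOC_Os07g26630), PIP2-5 (LOC_Os07g26660), PIP2-6 (LOC_Os04g16450) and PIP2-7 (LOC_Os09g36930) of the PIP2 subfamily. Of these, 8 are among the 20134 genes of the tag count table, and all 10 are among the 37497 genes of the RNA-seq table, where PIP2-3 and PIP2-5 have their only values. Gene symbols rest on general knowledge of rice and were not checked against an annotation, since the tables list locus numbers alone; the hyphen stands for the semicolon that is also in use. PIP2-1, PIP2-4 and PIP2-5 carry neighbouring locus numbers, and tags or reads of near-identical copies could have been split or lost in counting, so their levels are uncertain to that extent.

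Aquaporins are membrane channels that let water pass in and out of cells along its gradient, and a working channel is a complex of several PIP proteins. PIP2 proteins conduct water well on their own when expressed in frog oocytes, whereas in maize PIP1 proteins need a PIP2 partner to reach the plasma membrane. In plants at large they carry part of the water that crosses living cells of roots, leaves and flowers, and several also pass carbon dioxide or hydrogen peroxide.

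The study measured gene expression in 2 wild relatives of cultivated rice, Oryza nivara, an annual, and Oryza rufipogon, a perennial, to compare the species in organs of the reproductive stage. Digital gene expression (DGE) counts a short tag cut next to a restriction site in each transcript, and it was run on 36 libraries, 6 plants for each of 6 groups: panicles at flowering, panicles at heading and flag leaves at heading, each from both species. In every group 3 plants were collected in 2010 and 3 in 2009, all raised from seed in pots in a greenhouse, from accessions that came from India, Thailand, Nepal or Myanmar. RNA-seq was run on 6 more libraries, 1 for each species and organ, all from plants of 2009. The library titles carry 17 plant numbers, 10 of O. nivara and 7 of O. rufipogon, and several organs share a number. No number has libraries of both years, so collection year cannot be told apart from the plants and accessions sampled or from sequencing depth.

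Summed tag counts ranged from 2677440 to 4173433 in the 18 libraries of 2010 and from 1725036 to 2712054 in the 18 of 2009. Levels are given as CPM, tags per 1000000 after TMM scaling over the 36 libraries, and the TMM factors were 0.892 to 1.34 at flowering, 1.085 to 1.44 at heading and 0.631 to 0.918 in flag leaves. Tags are not scaled by gene length, so the sums and shares over several PIP genes given next count tags and do not rank the genes by level. Pearson's r between libraries of 1 group was 0.518 to 0.915 across genes on the log2(CPM + 1) scale. The organ labels were checked with marker lists. The summed level of 7 floral organ genes was 420 to 1888 CPM in flowering panicles and 496 to 2245 CPM in heading panicles, against 8.88 to 55.4 CPM in flag leaves. Of the floral genes OsMADS6 had no tag in 6 of the 12 leaves and a tag in every panicle library. The summed level of 5 photosynthesis genes was 14790 to 73860 CPM in flag leaves and 338 to 8505 CPM in panicles. In these whole organs, a change in the number of cells of a type and a change in RNA per cell cannot be told apart.

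The PIP tags together made up a larger share of all tags in the leaves of 2010 than in those of 2009, and a different set of members supplied them. In flag leaves the 8 genes held 0.45% ± 0.11 of all tags, before any scaling, in 2010 and 0.0867% ± 0.0138 in 2009 in O. nivara, and 0.393% ± 0.0695 in 2010 and 0.182% ± 0.0656 in 2009 in O. rufipogon (SD, n = 3 each). PIP1 genes supplied 69.3% ± 6.37 of these leaf PIP tags in 2010 and 23.1% ± 6.99 in 2009 in O. nivara, and 66.7% ± 5.47 in 2010 and 8.76% ± 5.57 in 2009 in O. rufipogon. PIP2-7 alone supplied 0.459% ± 0.252 of the leaf PIP tags in 2010 and 53.0% ± 16.3 in 2009 in O. nivara, and 1.87% ± 1.85 in 2010 and 88.2% ± 6.19 in 2009 in O. rufipogon. In heading panicles the 8 genes held 0.35% ± 0.0731 of all tags in 2010 and 0.23% ± 0.123 in 2009 in O. nivara, and 0.312% ± 0.0455 in 2010 and 0.0799% ± 0.0236 in 2009 in O. rufipogon. The flowering panicles of O. nivara plants 52, 80 and 197, of 2010, had 0.615, 0.797 and 1.15% of all tags, more than any other library, while those of 2009 had 0.242, 0.412 and 0.153% in plants 25, 34 and 40. On the scaled level plant 52, at 4940 CPM, lay below 5 of the 6 leaves of 2010. No test was run on these sums and shares.

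**Figure D1:**
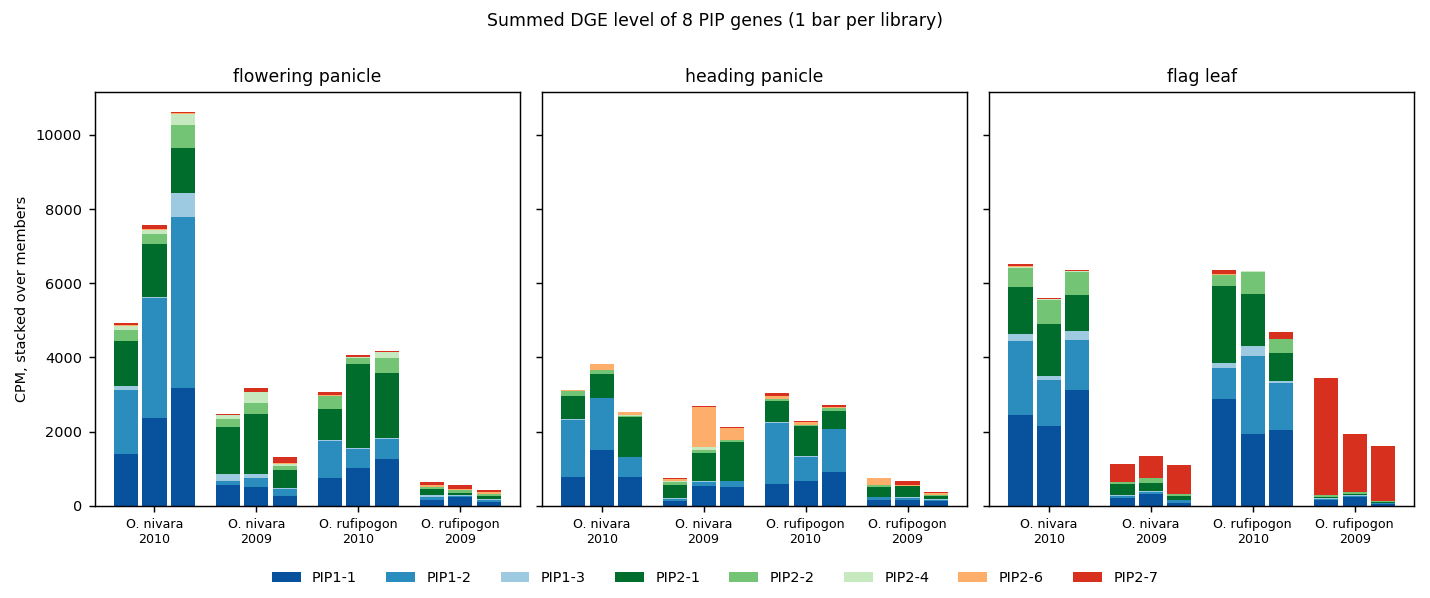
Summed DGE level of the 8 PIP genes in each of the 36 libraries, in CPM stacked by member, with 1 bar per library and 3 bars per species and year in each organ. PIP2-7 fills 42.8 to 92.0% of the bar in the 6 flag leaves of 2009 and at most 3.85% in the 6 of 2010, and the tallest bar, 10610 CPM, is an O. nivara flowering panicle of 2010.

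In flag leaves 6 of the 8 PIP genes were higher in 2010 than in 2009, PIP2-7 was lower and PIP2-6 did not pass the test. These 7 calls compare with 25.5% of the 15480 genes tested in that contrast, 13.4% higher and 12.1% lower (edgeR quasi-likelihood test with species in the model, Benjamini-Hochberg adjusted p under 0.05). The median log2 difference was 3.53 over the 8 PIP genes and -0.03 over all genes tested. The libraries of both years did not overlap for 5 genes on the higher side, where 7.86% of genes show this, and for PIP2-7 on the lower side, where 3.33% do. The photosynthesis marker sum was 14790 to 73860 CPM in the leaves of 2010 and 18000 to 63500 CPM in those of 2009. The floral marker sum was 18.7 to 55.4 CPM in 2010 and 8.88 to 23.1 CPM in 2009. Their part in the year differences was not tested.

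PIP1-2, which in rice has been linked to carbon dioxide movement in leaves, had the largest difference of the 8. It stood at 2005, 1247 and 1358 CPM in the O. nivara leaves of 2010 and at 51.8, 48.5 and 59.4 CPM in those of 2009. In O. rufipogon leaves the values were 839, 2126 and 1249 CPM in 2010 and 36.4, 36.2 and 24.3 CPM in 2009. The lowest leaf of 2010 was more than 10 times the highest leaf of 2009, and the log2 difference was 5.07 (SE 0.40, edgeR adjusted p = 2.96e-05). PIP1-1, a second PIP1 gene, had 2448, 2151 and 3122 CPM in the O. nivara leaves of 2010 and 207, 326.5 and 83.7 CPM in those of 2009. Its O. rufipogon leaves had 2869, 1924 and 2055 CPM in 2010 and 150.5, 231 and 48 CPM in 2009. Every leaf of 2010 lay above every leaf of 2009, by 3.75 on the log2 scale (SE 0.47, adjusted p = 3.12e-04). PIP1-3, known in cultivated rice as a gene of the drought response, differed in the same direction. It had 187, 88.8 and 246 CPM in 2010 and 23.8, 12.5 and 26.6 CPM in 2009 in O. nivara, and 155, 250.0 and 49.3 CPM in 2010 and 18.5, 28.5 and 9.72 CPM in 2009 in O. rufipogon. The years did not overlap for it either, and the log2 difference was 2.93 (SE 0.46, adjusted p = 0.00103).

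Among the PIP2 genes, PIP2-1 and PIP2-2 moved the same way in leaves. PIP2-1, a water channel that in cultivated rice is prominent in roots, had 1263, 1402 and 967 CPM in 2010 and 305, 239.8 and 90.7 CPM in 2009 in O. nivara, and 2063, 1416 and 758 CPM in 2010 and 41.8, 29 and 29.2 CPM in 2009 in O. rufipogon. The years did not overlap, and the difference was 3.88 on the log2 scale (SE 0.64, edgeR adjusted p = 0.00128). It was 2.42 within O. nivara and 5.32 within O. rufipogon (adjusted p = 0.0433 and 0.0122), and whether the species differ in it was not tested. PIP2-2 had 505.5, 656.5 and 622 CPM in 2010 and 54.6, 112 and 46.3 CPM in 2009 in O. nivara, and 295, 600.2 and 377.5 CPM in 2010 and 40.6, 40.9 and 15.2 CPM in 2009 in O. rufipogon. Its years did not overlap either, with a log2 difference of 3.32 (SE 0.40, adjusted p = 2.77e-04).

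PIP2-4 had few tags in leaves, with 243 tags over the 3 O. nivara leaves of 2010 and 2 over those of 2009, and 68 tags over the O. rufipogon leaves of 2010 and 5 over those of 2009. Its fitted log2 difference of 4.40 (SE 0.91, edgeR adjusted p = 0.00437) therefore rests on counts of 0 to 3 in every leaf of 2009, and 1 O. rufipogon leaf of 2010, from plant 230, also had a single tag. PIP2-6 had 3.96 to 20.9 (median 11.1) CPM in the leaves of 2010 and 0 to 5.54 (median 3.86) CPM in those of 2009. These ranges overlap, and its log2 difference of 1.84 missed the threshold (SE 0.65, adjusted p = 0.0541).

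PIP2-7 ran the other way. This gene, which has been tied to chilling tolerance in cultivated rice, stood at 45.4, 27.2 and 12.4 CPM in the O. nivara leaves of 2010 and at 479.9, 596 and 794 CPM in those of 2009. In O. rufipogon leaves it had 100.3, 11.1 and 180.3 CPM in 2010 and 3147, 1578 and 1471 CPM in 2009. The highest leaf of 2010 was below the lowest of 2009, and the log2 difference was -4.50 (SE 0.63, edgeR adjusted p = 5.36e-04). Fitted within each species alone it was -4.54 in O. nivara and -4.48 in O. rufipogon (adjusted p = 0.0115 and 0.0362). Within each species, PIP1-1, PIP1-2, PIP1-3, PIP2-1 and PIP2-2 were also called higher in 2010.

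**Figure D2:**
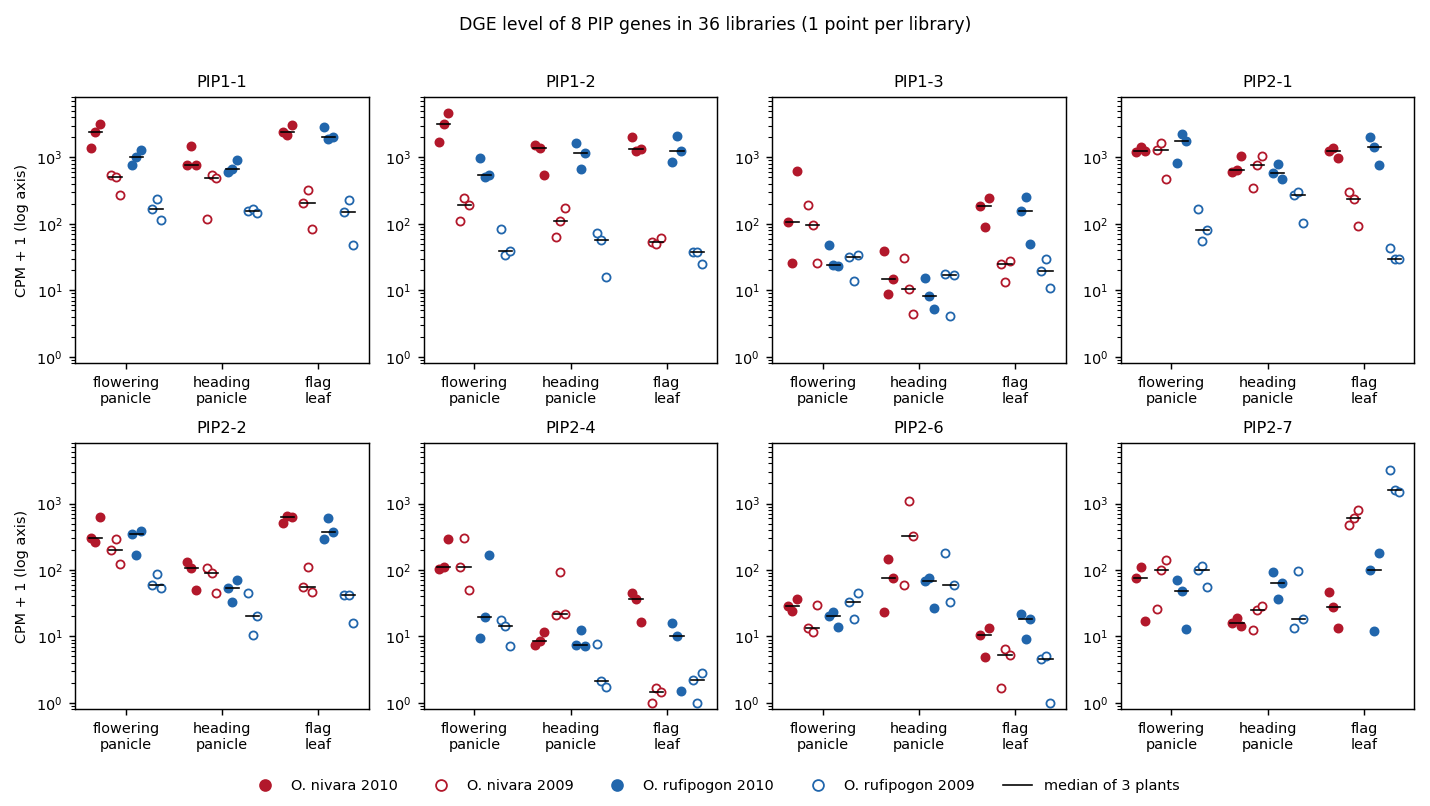
DGE level of each of the 8 PIP genes in the 36 libraries, as CPM + 1 on a log axis, with 1 point per library, filled for 2010 and open for 2009, and a line at the median of each 3 plants. PIP1-1 and PIP1-2 have every point of 2010 above every point of 2009 within each organ, while the open points of PIP2-7 rise to 480 to 3147 CPM in flag leaves only.

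In panicles fewer PIP genes passed the test between the years, and PIP2-7 was not among them. In heading panicles 2 of the 8 were called, both higher in 2010, where 25% of the 18634 genes tested were called in either direction by the edgeR quasi-likelihood test and 12.6% were higher. PIP1-2 had 1545, 1386 and 538 CPM in 2010 and 61.5, 110.2 and 174 CPM in 2009 in O. nivara heading panicles, and 1643, 665 and 1177 CPM in 2010 and 71.5, 56 and 14.9 CPM in 2009 in O. rufipogon. PIP1-1 had 768, 1510 and 768 CPM in 2010 and 117, 536 and 494 CPM in 2009 in O. nivara, and 598, 664 and 903 CPM in 2010 and 158, 165 and 143 CPM in 2009 in O. rufipogon. For both genes the years did not overlap, as for 7.49% of all genes on the higher side. The log2 differences were 3.86 for PIP1-2 (SE 0.55, adjusted p = 6.84e-04) and 1.71 for PIP1-1 (SE 0.41, adjusted p = 0.0101). PIP1-1 did not pass within either species alone, at 1.34 in O. nivara and 2.16 in O. rufipogon (adjusted p = 0.208 and 0.0559). PIP2-6 had a log2 difference of -1.74 that did not pass (adjusted p = 0.114). It was called in 1 of 19 alternative fits, which gave log2 differences of -2.64 to -0.77. The other 5 genes lay between -0.66 and 0.68 in the main fit. The photosynthesis marker sum was 1434 to 5528 CPM in the heading panicles of 2010 and 338 to 1663 CPM in those of 2009, the tapetum marker sum 410 to 11200 CPM in 2010 and 1065 to 7972 CPM in 2009, and the floral marker sum 916 to 2245 CPM in 2010 and 496 to 1278 CPM in 2009. Their part in these differences was not tested.

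In flowering panicles 3 of the 8 were called, again all higher in 2010, against 17.7% of the 18743 genes tested in either direction and 9.54% higher. PIP1-2 had 1722, 3239 and 4611 CPM in 2010 and 109, 245 and 189.8 CPM in 2009 in O. nivara, and 975, 513 and 537 CPM in 2010 and 82.2, 33.5 and 38.1 CPM in 2009 in O. rufipogon. PIP1-1 had 1404, 2377 and 3182 CPM in 2010 and 552, 510.4 and 275 CPM in 2009 in O. nivara, and 759, 1012 and 1274 CPM in 2010 and 166, 234 and 112.5 CPM in 2009 in O. rufipogon. Neither gene's years overlapped, as for 3.74% of all genes on the higher side. The log2 differences were 3.90 for PIP1-2 (SE 0.46, edgeR adjusted p = 4.6e-04), 2.47 for PIP1-1 (SE 0.38, adjusted p = 0.00157) and 1.58 for PIP2-2 (SE 0.42, adjusted p = 0.0224). Within O. nivara alone PIP1-1 and PIP2-2 missed the threshold, at 2.34 and 0.91 (adjusted p = 0.0959 and 0.398). PIP2-2 also missed it in 4 of the 12 fits that left out 1 library, without the flowering panicle of O. nivara plant 197 (1.48, adjusted p = 0.0512) or of O. rufipogon plant 43, 47 or 50 (1.5, 1.61 and 1.47, adjusted p = 0.0577, 0.0501 and 0.0575). The photosynthesis marker sum was 2109 to 8505 CPM in the flowering panicles of 2010 and 1697 to 7237 CPM in those of 2009. The tapetum sum was 13.4 to 5335 CPM in 2010 and 1.35 to 616 CPM in 2009, the floral sum 683 to 1888 CPM in 2010 and 420 to 1132 CPM in 2009, and the endosperm sum 29.8 to 337 CPM in 2010 and 36.8 to 559 CPM in 2009. Their part in the year differences was not tested. PIP2-1 differed in the fit within O. rufipogon, by 4.01 on the log2 scale (adjusted p = 0.0311), where it had 832, 2270 and 1750 CPM in 2010 and 164, 55.3 and 80.5 CPM in 2009. In O. nivara the same gene had 1200, 1417 and 1232 CPM in 2010 and 1280, 1626 and 473 CPM in 2009, and over both species it missed the threshold (2.08, SE 0.83, adjusted p = 0.105).

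Whether the year difference itself changed between organs was tested in 1 fit of all 36 libraries, a test added after the year differences had been seen. It was called for PIP2-7 (edgeR adjusted p = 0.00332) and PIP2-2 (adjusted p = 0.0135), 2 of 8, against 2.89% of all genes, and 7 of 8 had an unadjusted p under 0.05, against 15.6%. With the plant number as a block, 4 of 8 were called, PIP1-3 and PIP2-1 being the others, and the share of all genes under the block is not given here. The fitted year difference of PIP2-7 was -0.75 at flowering, -0.02 at heading and -4.50 in flag leaves, and that of PIP2-2 was 1.58, 0.57 and 3.32 in the same organs. PIP1-2 gave 3.90, 3.86 and 5.07, and for it no change between organs was detected (unadjusted p = 0.0642, adjusted p = 0.365).

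**Figure D3:**
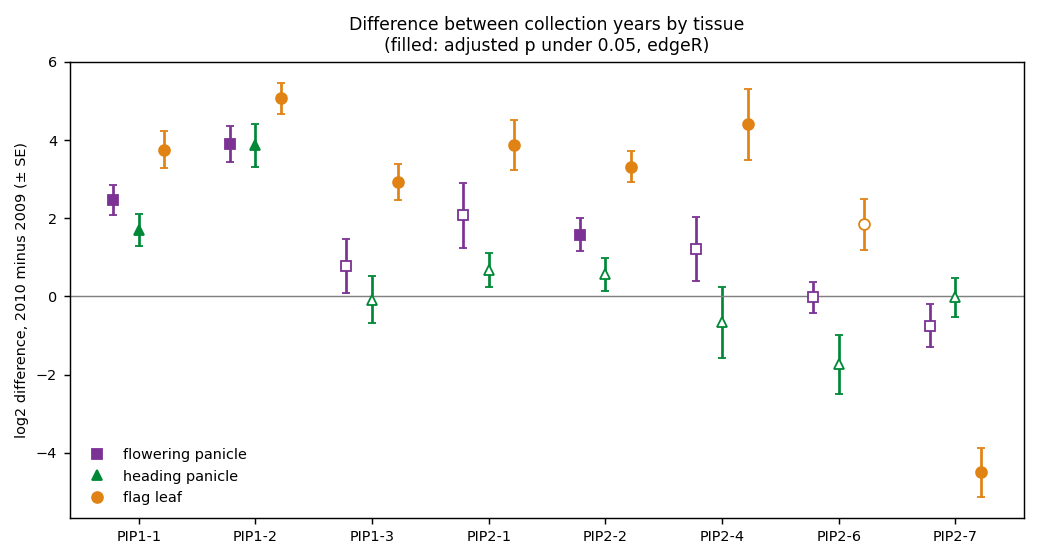
Log2 difference between 2010 and 2009 for each PIP gene in flowering panicles, heading panicles and flag leaves, with its SE, filled where the edgeR adjusted p was under 0.05. Leaves have 7 filled points, of which only PIP2-7 lies below 0, while heading panicles have 2 and flowering panicles 3, all above 0.

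Between organs, PIP2-6 was higher in the heading panicles of both species than in their leaves. This gene has been reported to pass arsenite when expressed in frog oocytes. In O. nivara it had 22.6 to 1073 (median 111) CPM in heading panicles and 0.701 to 12.4 (median 4.88) CPM in flag leaves, and in O. rufipogon 25.6 to 179 (median 62.8) CPM in heading panicles and 0 to 20.9 (median 6.07) CPM in flag leaves. In neither species did the organs overlap, as for 9.23% of all genes on the higher side in O. nivara and for 9.59% of them in O. rufipogon. Heading panicle minus flag leaf was 5.25 on the log2 scale in O. nivara (SE 0.73, edgeR adjusted p = 8.96e-07) and 3.46 in O. rufipogon (SE 0.68, adjusted p = 1.16e-04). Within single years the difference was called each time, at 3.17 in 2010 and 7.08 in 2009 in O. nivara, and at 1.86 in 2010 and 5.08 in 2009 in O. rufipogon. The sizes in 2009 rest on few leaf tags, 18 over the O. nivara leaves and 14 over those of O. rufipogon. The heading panicles varied widely among themselves, with 1073 CPM in O. nivara plant 33 and 22.6 CPM in plant 52. Plant 52 also had the lowest tapetum marker sum of the heading panicles, 410 CPM, where the other 11 had 1065 to 11200 CPM, and plant 33 had 1065 CPM.

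In all, 4 of the 8 PIP genes were called between heading panicle and flag leaf in each species, 1 higher and 3 lower, against 46.7% of the 20134 genes tested in O. nivara (26.3% higher, 20.4% lower) and 42.6% in O. rufipogon (23.9% higher, 18.7% lower). Both comparisons named PIP2-6 as higher and PIP1-3, PIP2-2 and PIP2-7 as lower in heading panicles. Both organs came from the same plant for 5 plants of O. nivara and 6 of O. rufipogon, and this fit treated their libraries as independent. PIP1-3 had 3.38 to 37.5 (median 11.7) CPM in heading panicles and 12.5 to 246 (median 57.8) CPM in leaves of O. nivara, and 3.13 to 16.7 (median 10.9) CPM in heading panicles and 9.72 to 250.0 (median 38.9) CPM in leaves of O. rufipogon. The log2 difference was -1.83 in O. nivara (SE 0.64, edgeR adjusted p = 0.0186) and -2.37 in O. rufipogon (SE 0.65, adjusted p = 0.00366). PIP2-2 had 43.6 to 130.3 (median 96.3) CPM in heading panicles and 46.3 to 656.5 (median 309) CPM in leaves of O. nivara, and 9.67 to 68.9 (median 38.2) CPM in heading panicles and 15.2 to 600.2 (median 168) CPM in leaves of O. rufipogon. Its log2 difference was -1.24 in O. nivara (SE 0.40, adjusted p = 0.0114) and -1.72 in O. rufipogon (SE 0.41, adjusted p = 8.94e-04). All these ranges overlap between the organs, and each pools libraries of both years. On library totals without TMM factors, an alternative added after the data were seen, PIP1-3 and PIP2-2 were no longer called in O. nivara (-1.2 and -0.52, adjusted p = 0.112 and 0.237), and PIP1-2 and PIP2-4 were. In O. rufipogon both stayed called, PIP2-2 at -0.92 (adjusted p = 0.0376). The median log2 difference of all genes was 0.84 on those totals and 0.18 with TMM in O. nivara, and 0.93 on totals and 0.16 with TMM in O. rufipogon.

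For these 3 lower genes the organ difference was called within 1 of the years and not within the other. PIP1-3 was lower in heading panicles within 2010, with a log2 difference of -3.16 for O. nivara and of -4.10 for O. rufipogon, and not called within 2009, at -0.58 in O. nivara and -0.66 in O. rufipogon (adjusted p = 0.638 and 0.613). PIP2-2 had -2.68 in O. nivara and -3.03 in O. rufipogon within 2010, and 0.15 in O. nivara and -0.40 in O. rufipogon within 2009 (adjusted p = 0.878 and 0.678). PIP2-7 had the reverse order, with -0.92 in O. nivara and -0.60 in O. rufipogon within 2010 (adjusted p = 0.425 and 0.619) and -4.88 in O. nivara and -5.62 in O. rufipogon within 2009. The year by organ test called PIP2-2 and PIP2-7 and not PIP1-3 (adjusted p = 0.103). For PIP2-7 the pooled log2 differences were -2.86 in O. nivara (SE 0.60, edgeR adjusted p = 2.46e-04) and -3.09 in O. rufipogon (SE 0.60, adjusted p = 1.13e-04). The heading panicles had 14.7, 17.9 and 13.6 CPM in 2010 and 11.7, 24 and 27.4 CPM in 2009 in O. nivara, and 93.7, 35.5 and 62.7 CPM in 2010 and 12.5, 95.9 and 17.4 CPM in 2009 in O. rufipogon. None of them reached 100 CPM, while all 6 leaves of 2009 lay above 400 CPM.

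PIP2-4, known in cultivated rice mainly from roots, had its highest median in flowering panicles in both species. It had 49.8 to 305.5 (median 111) CPM in flowering panicles, 6.53 to 91.1 (median 15.3) CPM in heading panicles and 0 to 44.1 (median 8.04) CPM in flag leaves of O. nivara. In O. rufipogon it had 6.1 to 166 (median 15.1) CPM in flowering panicles, 0.71 to 11.6 (median 6.3) CPM in heading panicles and 0 to 15 (median 1.51) CPM in flag leaves. Flowering panicle minus flag leaf was 5.01 in O. nivara (SE 0.94, edgeR adjusted p = 1.28e-04), where the organs did not overlap, as for 6.17% of genes on the higher side, and 3.70 in O. rufipogon (SE 0.98, adjusted p = 0.00292), where they did. In that comparison 3 of 8 PIP genes were called in O. nivara, all higher, where 37.5% of all genes were called and 21.9% were higher. In O. rufipogon 3 of 8 were called, 2 higher and 1 lower, where 40.4% of all genes were called, 22.7% higher and 17.8% lower. The others were PIP1-2 at 1.41 (adjusted p = 0.00639) and PIP2-6 at 2.08 (adjusted p = 0.0135) in O. nivara, and PIP2-6 at 1.86 (adjusted p = 0.0213) and PIP2-7 at -2.85 (adjusted p = 2.9e-04) in O. rufipogon. On library totals without TMM factors 7 of the 8 were called in O. nivara and 5 in O. rufipogon. No share of all genes called on those totals is given here, so these counts cannot be set against a background. With the plant number as a block PIP1-2 was no longer called (1.12, adjusted p = 0.124). The PIP2-6 call in O. rufipogon was lost without the flowering panicle of plant 50 (1.62, adjusted p = 0.0524). PIP2-6 was not called in O. nivara within either year. Within 2010 alone none of the 8 passed in O. nivara, and PIP2-4 alone passed in O. rufipogon.

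From heading to flowering, 5 of the 8 PIP genes were called in O. nivara, 4 higher and 1 lower, against 12.9% of all genes (6.81% higher, 6.12% lower). In O. rufipogon 1 was called, higher, against 8.25% of all genes (4.19% higher). In O. nivara PIP1-3 was higher by 3.28 on the log2 scale (SE 0.67, edgeR adjusted p = 0.00152), PIP2-4 by 2.91 (SE 0.86, adjusted p = 0.022), PIP2-7 by 2.08 (SE 0.58, adjusted p = 0.0161) and PIP2-2 by 1.73 (SE 0.40, adjusted p = 0.00453). PIP2-6 was lower, with a log2 difference of -3.16 (SE 0.65, adjusted p = 0.00173), with 10.8 to 36.2 (median 25.8) CPM in flowering panicles, and the organs overlapped. PIP1-3 had 24.7 to 631 (median 102) CPM in the flowering panicles and 3.38 to 37.5 (median 11.7) CPM in the heading panicles of O. nivara, and PIP2-7 had 16.1 to 142 (median 86.5) CPM in flowering and 11.7 to 27.4 (median 16.3) CPM in heading panicles. The PIP2-4 call was lost without the flowering panicle of plant 34 or the heading panicle of plant 52, 80 or 133, with log2 differences of 2.3 to 2.66 and adjusted p of 0.0575 to 0.0794. In O. rufipogon PIP2-2 was called, at 2.01 (SE 0.41, adjusted p = 0.00229), with 53 to 389 (median 125) CPM in flowering panicles and 9.67 to 68.9 (median 38.2) CPM in heading panicles. The O. nivara calls were all lost with the plant number as a block, where only 2 plants gave both organs. The log2 differences under the block were 2.76 for PIP2-4, 2.63 for PIP2-7, -2.32 for PIP2-6, 1.12 for PIP2-2 and 1.0 for PIP1-3 (adjusted p of 0.227 to 0.641). In O. rufipogon, with 5 such plants, the block gave 2 calls, PIP2-2 and PIP2-6 (-1.91, adjusted p = 0.0354). In O. nivara the photosynthesis marker sum was 2370 to 7237 CPM in flowering and 338 to 4870 CPM in heading panicles, the tapetum sum 1.35 to 289.8 CPM in flowering and 410 to 1527 CPM in heading panicles, and the endosperm sum 29.8 to 342 CPM in flowering and 14.2 to 87.2 CPM in heading panicles. Their part in these calls was not tested. Whether the species differ in their organ differences was tested by a species by tissue interaction over all 36 libraries, which called none of the 8.

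**Figure D4:**
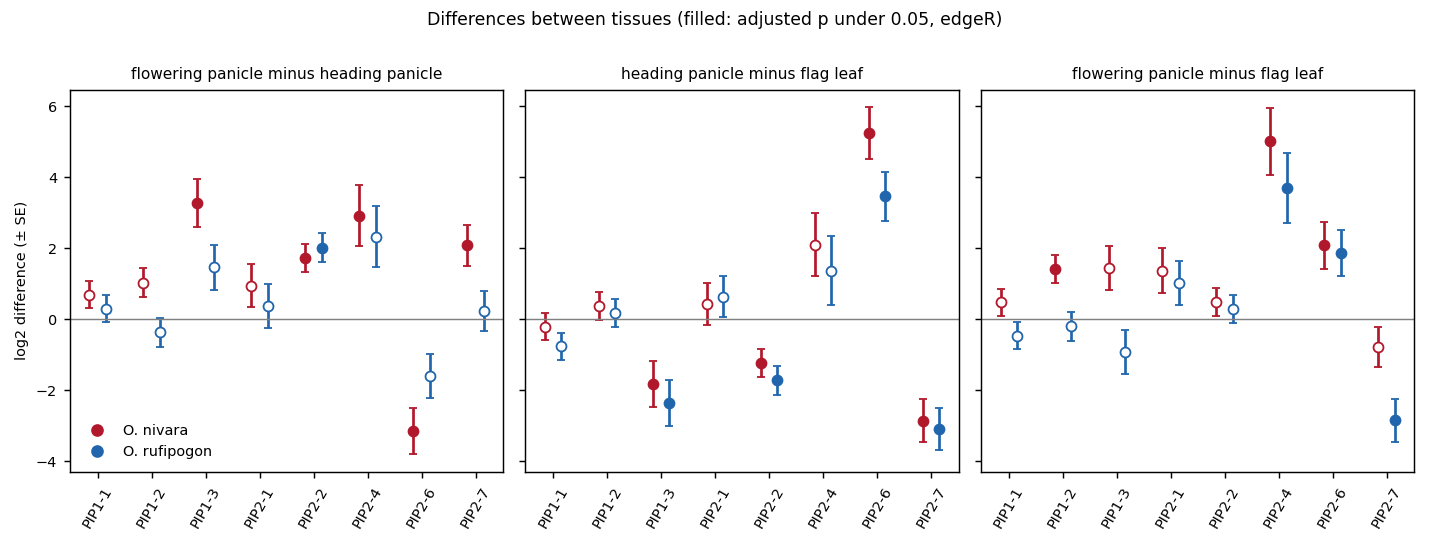
Log2 differences between organs for each PIP gene with their SE, O. nivara left of O. rufipogon, filled where the edgeR adjusted p was under 0.05. PIP2-6 has the highest point of heading panicle minus flag leaf in both species, 5.25 in O. nivara and 3.46 in O. rufipogon, and PIP2-4 that of flowering panicle minus flag leaf, 5.01 in O. nivara and 3.70 in O. rufipogon.

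Between the species, edgeR called 1 PIP gene in 1 organ, and DESeq2 called 4 there. In flowering panicles PIP1-2 had 1722, 3239 and 4611 CPM in O. nivara of 2010 and 975, 513 and 537 CPM in O. rufipogon of 2010, and 109, 245 and 189.8 CPM in O. nivara of 2009 and 82.2, 33.5 and 38.1 CPM in O. rufipogon of 2009. Within each year the O. nivara values lay above those of O. rufipogon, while over both years together the species overlapped. The share of all genes separated in this way within each year was not computed. The log2 difference of PIP1-2 was 2.03 (SE 0.43, edgeR adjusted p = 0.0426). This was 1 call of 8, against 1.26% of all genes called in either direction and 0.416% higher. That call stood near the threshold and was lost in 9 of the 12 fits that left out 1 library. It held without O. nivara plant 25 or 40 or O. rufipogon plant 230, and was lost without O. nivara plant 34, 52, 80 or 197 or O. rufipogon plant 43, 47, 50, 95 or 199, with log2 differences of 1.85 to 2.29 and adjusted p of 0.0333 to 0.0959 over the 12. It was also lost on library totals without TMM factors (2.01, adjusted p = 0.0546). DESeq2 called PIP1-1, PIP1-2, PIP1-3 and PIP2-4, all higher in O. nivara (adjusted p = 0.00174, 1.27e-05, 0.00462 and 0.0116). Over all genes it called 2066 in this comparison, where edgeR called 236. Of the other 7 genes, 4 had an unadjusted p under 0.05 there, as 21.1% of all genes did: PIP1-3 at 2.51 (adjusted p = 0.0839), PIP2-4 at 2.51 (adjusted p = 0.123, and 3.66 with adjusted p = 0.00934 without O. rufipogon plant 230), PIP1-1 at 1.28 (adjusted p = 0.0841) and PIP2-2 at 1.01 (adjusted p = 0.19). PIP1-3 had 107, 25.2 and 631 CPM in the O. nivara plants 52, 80 and 197 of 2010, so its highest value came from 1 plant, and 46.5, 23.3 and 22.2 CPM in O. rufipogon of 2010. Within 2010 PIP1-2 had a difference of 2.21 and within 2009 of 1.85, neither called (adjusted p = 0.194 and 0.232). Without O. nivara plants 34 and 197, an alternative added after the data were seen, none of the 8 was called. The tapetum marker sum was 1.35 to 289.8 CPM in O. nivara and 77.1 to 5335 CPM in O. rufipogon flowering panicles, the endosperm marker sum 29.8 to 342 CPM in O. nivara and 311 to 559 CPM in O. rufipogon, and their part in these differences was not tested.

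No PIP gene was called between the species in heading panicles, where 0.161% of all genes were, or in flag leaves, where 0.2% were. In heading panicles 4 had an unadjusted p under 0.05 in edgeR, as 11% of all genes did, and DESeq2 also called none. The values were PIP2-2 at 1.28 (SE 0.42, adjusted p = 0.285), PIP2-1 at 1.0 (SE 0.44, adjusted p = 0.435), PIP1-1 at 0.90 (SE 0.40, adjusted p = 0.439) and PIP2-7 at -1.53 (SE 0.52, adjusted p = 0.297). In flag leaves PIP2-7 was the only one with an unadjusted p under 0.05, as 12.3% of all genes, at -1.76 (SE 0.56, adjusted p = 0.27), and DESeq2 called none. Within 2009 its O. nivara leaves, at 480 to 794 CPM, all lay below its O. rufipogon leaves, at 1471 to 3147 CPM. Within 2010 the species overlapped, at 12.45 to 45.43 CPM in O. nivara and 11.05 to 180.3 CPM in O. rufipogon. The difference was called in none of 20 alternative fits, which include the fit within 2009. The share of all genes separated in this way within 1 year was not computed. The species by tissue interaction, with no call in edgeR or DESeq2, gave 3 PIP genes with an unadjusted p under 0.05 (PIP1-2, PIP1-3 and PIP2-7), against 0.0149% called and 8.51% under 0.05 unadjusted among all genes.

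RNA-seq gives RPKM, reads scaled to both gene length and library size, so that levels of different PIP genes can be set side by side, with no replicates and only for plants of 2009. All O. rufipogon libraries came from plant 47. Those of O. nivara came from plant 40 for the flowering panicle and leaf, and from plant 39 for the heading panicle. In flag leaves PIP2-7 led, at 1379 RPKM in O. nivara and 970 RPKM in O. rufipogon. That was 88.0% of the summed RPKM of the 10 genes in O. nivara and 81.4% in O. rufipogon. PIP1-1 came next in leaves, at 71.9 RPKM in O. nivara and 142 RPKM in O. rufipogon. In heading panicles PIP1-1 led in both species, at 699 RPKM in O. nivara and 249 RPKM in O. rufipogon. PIP2-7 came second in the O. rufipogon heading panicle, at 199 RPKM, and had 52.0 RPKM in that of O. nivara. PIP2-1 had 608 RPKM in the O. nivara and 108 RPKM in the O. rufipogon heading panicle, and PIP1-2 had 534 RPKM in the O. nivara and 170.0 RPKM in the O. rufipogon one. PIP2-6 had 453 RPKM in the O. nivara heading panicle and 45.8 RPKM in that of O. rufipogon, against 0.964 RPKM in the O. nivara leaf and 2.37 RPKM in the O. rufipogon leaf. In flowering panicles PIP2-7 led in O. nivara, at 502 RPKM, and PIP1-1 in O. rufipogon, at 294 RPKM.

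The other 5 genes had no value above 56.4 RPKM. PIP2-2 had 9.05 to 56.4 RPKM over the 6 libraries, the highest in the O. nivara flowering panicle. PIP1-3 had 2.85 to 14.2 RPKM and PIP2-4 0.0581 to 6.74 RPKM. PIP2-5, known in cultivated rice as a root aquaporin, had 2.78 RPKM in the O. nivara heading panicle, 0.351 RPKM in its flowering panicle and 0.0333 RPKM in its leaf. PIP2-5 was listed at 0 in all 3 O. rufipogon libraries, which are all from plant 47. PIP2-3, also known from roots, had at most 0.386 RPKM and was listed at 0 in the O. rufipogon heading panicle. The read depth is unknown, so neither gene's zeros can be given a limit.

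The RNA-seq libraries carry plant numbers and organs that DGE libraries also carry, and the direction of each difference was compared between the assays. For each of the 6 organ contrasts, 7 of the 8 genes had the same sign in both, where 66.7 to 76.7% of all genes did. Between species 6 of 8 had the same sign in flowering panicles, where 65.9% of all genes did, 7 of 8 in heading panicles, where 72.9% did, and 5 of 8 in flag leaves, where 67.7% did. PIP2-7 in the flag leaf was an exception, at 1379 RPKM in O. nivara and 970 RPKM in O. rufipogon but at 794 CPM in O. nivara plant 40 and 1578 CPM in O. rufipogon plant 47. These contrasts share libraries and are a description only.

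**Figure D5:**
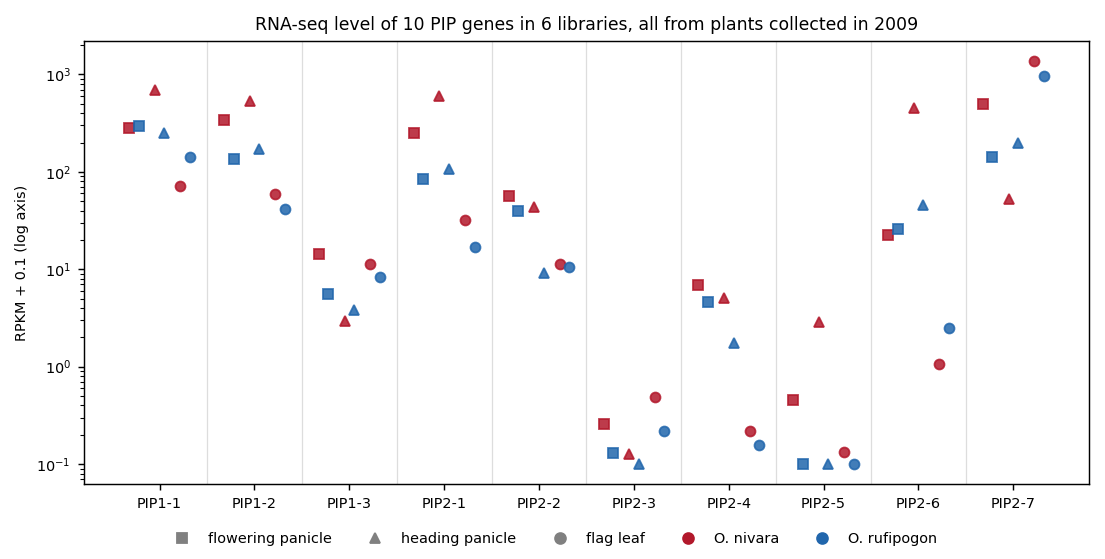
RNA-seq level of the 10 PIP genes in 6 libraries of plants collected in 2009, as RPKM + 0.1 on a log axis, with the marker giving the organ and the colour the species. PIP2-7 is highest in flag leaves, at 1379 RPKM in O. nivara and 970 RPKM in O. rufipogon, PIP2-6 peaks in the O. nivara heading panicle at 453 RPKM, and PIP2-3 and PIP2-5 stay at or below 2.78 RPKM.

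Across the 36 libraries the PIP genes did not form a single block. Pearson's r on log2(CPM + 1) was 0.905 between PIP1-1 and PIP1-2 and 0.815 between PIP1-1 and PIP2-1, and PIP2-7 had negative values with each of the other 7, from -0.215 to -0.631. These libraries share plants, years and organs. After the mean of each species, organ and year was removed, r was 0.228 between PIP1-1 and PIP1-2 and 0.448 between PIP1-1 and PIP2-1, and the most negative was -0.604, between PIP1-3 and PIP2-7. With the other genes PIP2-7 then had -0.417 (PIP2-2), -0.389 (PIP2-4), -0.07 (PIP2-1), -0.026 (PIP1-1), 0.11 (PIP2-6) and 0.135 (PIP1-2). The genes whose pattern over the 36 libraries was most like that of PIP1-1 were LOC_Os10g21860, at r = 0.915, and PIP1-2. For PIP1-2 they were LOC_Os06g07350, at 0.918, and LOC_Os02g47000, at 0.906, and for PIP2-1 LOC_Os03g48450, at 0.857, and LOC_Os02g35220, at 0.852.

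The other aquaporins were read from a list of 17 further loci, which holds PIP2-8 and genes of the tonoplast (TIP), nodulin-like (NIP) and small (SIP) subfamilies; 15 of them are in the tag table, and PIP2-8 was not analysed here. In flag leaves 13 were tested, and 5 were higher and 2 lower in 2010, where 13.4% of all genes were higher and 12.1% lower. The 3 named next were chosen after their values were seen. TIP1-1, a water channel of the vacuole membrane, was higher by 4.05 on the log2 scale (SE 0.54, edgeR adjusted p = 4.13e-04), with 135 to 193 CPM in 2010 and 2.80 to 26.3 CPM in 2009. Like PIP2-2 and PIP2-7, it was called in the test of year by organ (adjusted p = 0.00177). NIP3-1, a boron channel, was higher by 3.44 (SE 0.38, adjusted p = 1.9e-04), and TIP4-1 was lower, with a log2 difference of -4.26 (SE 1.23, adjusted p = 0.0232). The years overlapped for TIP4-1, with 19.06 to 145.3 (median 32.67) CPM in 2010 and 15.41 to 5228 (median 583.6) CPM in 2009. Like PIP2-6, NIP1-1 was higher in heading panicles than in leaves, by 4.63 in O. nivara and 6.39 in O. rufipogon (adjusted p = 3.41e-06 and 2.07e-07). TIP5-1, known from pollen in Arabidopsis, was higher in flowering panicles than in leaves, by 6.94 in O. nivara and 8.04 in O. rufipogon (adjusted p = 0.00224 and 4.06e-04), over leaf levels of 0 to 1.06 CPM. In the panicles 3 of 14 were called between years at heading, where 25% of all genes were, and 5 of 15 at flowering, where 17.7% were. None of the 13 to 15 tested was called between the species in any organ by edgeR, while 3 had an unadjusted p under 0.05 in flowering panicles, 1 in heading panicles and 1 in flag leaves. Of all genes 21.1% had such a p in flowering panicles, 11% in heading panicles and 12.3% in flag leaves.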

How the data were processed

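Tag counts per gene of 36 DGE libraries are used as the authors deposited them, as whole numbers, and the deposited TPM table of the same libraries was not used beyond checking its unit. RNA-seq values of 6 libraries are RPKM as deposited by the authors, with no counts and so no known depth. Per the submitters' processing notes, BWA and edgeR 3.6.8 were used; the genome build and the annotation are, in the sources used here, not given. Tags in DGE come from sites of a restriction enzyme, so a gene without a usable site, or with a site shared by a copy, is missed or mixed.

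Counts were tested with the quasi-likelihood F test of edgeR 4.0.16 in R 4.3.3, with TMM scaling, edgeR's filter on low counts and Benjamini-Hochberg adjustment over all genes tested; a gene was called at an adjusted p under 0.05. Species and year differences were fitted within each organ over 12 libraries with both terms. Organ differences and the interactions were fitted over 36 libraries, with a mean for each of the 6 groups and separate year terms per organ. An SE is the log2 difference divided by the root of F. CPM were computed over TMM-scaled library sizes, and shares of all tags over unscaled totals. The fits were tested on simulated counts. DESeq2 1.42.0 with RLE size factors, no TMM factors, no filter, fits within a year or a species, and leaving out each library were alternatives. All 10 PIP genes are named by their rule; other aquaporins are given as counts, with at most 3 named for a comparison between organs, and log2 differences are printed for genes called or with an unadjusted p under 0.05, with a few others for contrast. The PIP genes, the lists and the tests were chosen with earlier results of these data known.

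The number in a library's title was taken as the plant. Over 26 pairs of libraries with the same number in different organs, the correlation of deviations from the species and organ means was 0.166 to 0.622 (median 0.451), all above 0.1. The 82 pairs with another number of the same year had -0.134 to 0.597 (median 0.197), so the ranges overlap. After removal of year means too, the median was 0.259 for the same number, with 23 of 26 above 0.1, and -0.105 for another number. The plant number was therefore used as a block in an alternative fit. Columns of the RNA-seq table carry the plant and organ code of the library titles, each fitting 1 species and organ.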

Additional observations from a re-analysis of the deposited data

Results flagged for a closer look

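Of 48 groups of 6 libraries, 1 for each PIP gene, species and organ, 7 held a library far from the other 5. Each group pools plants of both years and CPM are skewed, so no chance rate is set beside this count. In O. nivara flowering panicles, plant 197 had 631.4 CPM of PIP1-3, where the others had 24.71 to 190.7 CPM, and 618.6 CPM of PIP2-2, where the others had 120 to 301.3 CPM. Plant 40 had 473.1 CPM of PIP2-1 there, below the 1200 to 1626 CPM of the others. In O. nivara heading panicles, plant 33 had 1073 CPM of PIP2-6, where the others had 22.61 to 323.2 CPM, and 91.1 CPM of PIP2-4, where the others had 6.526 to 20.96 CPM. In O. rufipogon, plant 230 had 166.3 CPM of PIP2-4 in its flowering panicle, where the others had 6.101 to 18.82 CPM, and plant 43 had 178.7 CPM of PIP2-6 in its heading panicle, where the others had 25.65 to 73.47 CPM.

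The year difference of PIP2-7 and of PIP2-2 differed between organs in the test of that difference (edgeR adjusted p = 0.00332 and 0.0135), a test added after the year differences were seen.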

How the results depend on the processing

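The 7 leaf calls between years kept their direction and side of the threshold with any 1 library left out, with RLE size factors, on library totals and without the filter, and DESeq2 and the fit of 36 libraries gave 8. Between species in flowering panicles 1 PIP gene was called: DESeq2 gave 4 and the fit of 36 libraries 2, while dropping the year term, library totals without TMM factors, either year alone, and leaving out plants 34 and 197 each gave 0, and leaving out 1 library gave 0 to 2. Over all genes that comparison had 236 calls, 2066 with DESeq2, 451 in the fit of 36 libraries, 44 without the year term, 9 within 2010, 13 within 2009 and 23 without plants 34 and 197. In flag leaves it had 31 calls, 414 with DESeq2, 259 with 36 libraries and 12 without the year term, and in heading panicles 30, 538, 92 and 13 under the same settings.

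Between years, 1 PIP gene was called at heading within O. rufipogon and 1 at flowering within O. nivara, and all-gene counts were 443 and 262 there, against 4657 and 3324 over both species. For flowering minus heading panicle, the 5 O. nivara calls became 2 without the year term, 0 within 2010, 1 within 2009 and 0 with the replicate block, where all genes gave 46 calls, against 2604 without it. The 1 O. rufipogon call became 3 with DESeq2, 0 without the year term, 0 within 2009, and 2 with either the 12 libraries compared or the replicate block. For flowering panicle minus flag leaf, the 3 O. nivara calls became 5 with DESeq2, 1 without the year term, 0 within 2010, 2 with the replicate block and 7 on library totals without TMM factors, and the 3 of O. rufipogon became 1 within 2010 and 5 on those totals. Year by tissue gave 7 with DESeq2, 4 with the replicate block and 2 to 4 with 1 library left out, 4 being without the heading panicle of O. nivara plant 26. Where no count over all genes stands beside them, these PIP counts cannot be read against a background share.

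Signs reversed for PIP2-2 between heading panicle and leaf of O. nivara within 2009 (0.15), for PIP2-4 there within 2010 (-2, adjusted p = 0.117) and for PIP1-3 between flowering panicle and leaf of O. nivara with the replicate block (-0.72, adjusted p = 0.366). The cause was not tested. Of the log2 differences under alternatives other than leaving out 1 library, 361 held their direction and side of the threshold, 48 lost and 23 gained a call. None of the 96 levels moved beyond 1 SD with another scaling. That SD pools plants of both years and can exceed the mean, as for PIP1-2 in O. nivara leaves (mean 795 CPM, SD 853). The check on levels could therefore hardly fail, and no conclusion is drawn from it. The replicate block changed no other call beyond those given here and beside the results. Depth limits PIP2-4 in leaves, at 0 to 3 tags per library in 2009, and PIP2-6 in the same leaves, at 0 to 9 tags. The RNA-seq values have no replicates, with 11 of 30 species ratios moved by a pseudocount of 0.1 in place of 1. P-values of the species and year fits within an organ measure the spread between separate plants of a group. Those of the organ and interaction fits treated libraries of the same plant as independent, except under the replicate block.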
